A study of Mus musculus with 3 samples.

Results

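The genes described here are 39 nucleolar and MYC-driven growth genes, taken by name from a list that holds Mycn and 38 genes of ribosome assembly, nuclear transport, polyamine and nucleotide supply, translation initiation and protein folding. All 39 were among the 19744 genes of the count tables. mRNA was counted in single cells by Drop-seq, which captures cells in droplets and counts transcripts from their 3′ ends, in 3 medulloblastomas that belong to 1 group. Every tumour came from a G-Smo mouse (hGFAP-Cre/SmoM2, C57BL/6), in which Cre driven by a human GFAP promoter turns on an activated Smoothened allele in neural stem cells and the granule neuron progenitors that arise from them. All mice had received 5 daily intraperitoneal doses of POx-palbo, the CDK4/6 inhibitor palbociclib in a polyoxazoline carrier, at 25 mg/kg from postnatal day 10, and were harvested on postnatal day 16. Untreated tumours are not analysed here, so no value below is an effect of the drug.

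The nucleolus is where ribosomal RNA is made, chemically modified by small nucleolar ribonucleoproteins, cut and assembled with proteins into ribosomal subunits. MYC family factors bind a short sequence called the E-box with their partner Max and raise the output of this pathway and of the polyamine, nucleotide, chaperone and translation genes that go with growth. Mycn is the family member that Hedgehog signalling induces in cerebellar granule neuron progenitors, and its level drops as those cells leave the cell cycle and turn on Neurod1, a transcription factor of granule neuron differentiation. Mki67 and Top2a mark proliferating cells.

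Promoter windows of 300 bases, from 250 before to 50 after the transcription start, were read from RefSeq's table for build GRCm38.p6, which held 34 of the 39 genes and not Npm1, Fbl, Bop1, Srm or Rrp12. The search covered both strands for 2 motifs, the E-box CACGTG, which is its own reverse complement, and the variant CACGCG with its reverse CGCGTG. The E-box stood in the windows of 10 of 34 genes (29.41%), namely Apex1, Eif4a1, Hspd1, Mybbp1a, Nme1, Nop2, Phb, Ran, Set and Wdr43, against 2187 of 27025 genes in the whole table (8.093%). The variant stood in 11 of 34 (32.35%), namely Cct3, Hspd1, Hspe1, Mybbp1a, Nolc1, Odc1, Phb, Ppan, Ran, Ranbp1 and Tfrc, against 2835 of 27025 (10.49%). A match describes the letters of the window and shows no binding. The list was named for MYC-driven genes, so its larger shares are no independent evidence of MYC control. The whole table was not matched to the members by expression or base content. The windows below belong to Nolc1, the member that passed the test by Neurod1 detection, to Hspd1, Ran and Eif4a1, which carried CACGTG and had an unadjusted p under 0.05 in that comparison, and to Mybbp1a, which passed in the comparison by barcode depth. They are written 5′ to 3′ on the gene's strand with the E-box and the variant in capitals. The Nolc1 window (chr19:46075597-46075896, plus strand) held no CACGTG and 1 variant, which began at position -25 from the start. The Hspd1 window (chr1:55088194-55088493, minus strand), 1 of 2 in the table for this gene, held CACGTG at -80. The Ran window (chr5:129019906-129020205, plus strand) held CACGTG at -118 and 5 variants, the Eif4a1 window (chr11:69672374-69672673, minus strand) held CACGTG at -189, and the Mybbp1a window (chr11:72441077-72441376, plus strand) held CACGTG 41 bases into the transcript and 2 overlapping variants.
Nolc1: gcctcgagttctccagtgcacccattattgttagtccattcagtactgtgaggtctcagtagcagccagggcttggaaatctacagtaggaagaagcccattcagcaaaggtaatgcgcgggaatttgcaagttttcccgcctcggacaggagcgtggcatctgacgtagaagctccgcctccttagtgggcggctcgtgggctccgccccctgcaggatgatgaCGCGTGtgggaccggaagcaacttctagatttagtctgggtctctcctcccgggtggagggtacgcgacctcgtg
Hspd1: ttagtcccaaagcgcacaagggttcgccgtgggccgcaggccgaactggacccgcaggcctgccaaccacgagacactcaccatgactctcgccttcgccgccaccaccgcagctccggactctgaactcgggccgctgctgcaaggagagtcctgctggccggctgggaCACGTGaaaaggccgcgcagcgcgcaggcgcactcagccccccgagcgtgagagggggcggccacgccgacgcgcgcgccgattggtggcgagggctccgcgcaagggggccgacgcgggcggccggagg
Ran: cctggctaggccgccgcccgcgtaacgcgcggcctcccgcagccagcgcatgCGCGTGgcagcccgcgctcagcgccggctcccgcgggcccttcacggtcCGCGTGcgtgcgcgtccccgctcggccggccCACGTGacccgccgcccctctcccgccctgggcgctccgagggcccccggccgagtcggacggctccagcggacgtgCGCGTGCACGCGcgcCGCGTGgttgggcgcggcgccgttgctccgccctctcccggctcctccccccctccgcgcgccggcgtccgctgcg
Eif4a1: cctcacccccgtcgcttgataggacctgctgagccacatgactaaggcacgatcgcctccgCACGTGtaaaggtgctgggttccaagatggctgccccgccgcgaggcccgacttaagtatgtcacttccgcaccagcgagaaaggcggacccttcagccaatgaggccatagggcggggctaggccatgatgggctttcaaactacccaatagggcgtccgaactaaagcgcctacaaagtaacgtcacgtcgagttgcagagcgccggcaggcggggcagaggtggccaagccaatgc
Mybbp1a: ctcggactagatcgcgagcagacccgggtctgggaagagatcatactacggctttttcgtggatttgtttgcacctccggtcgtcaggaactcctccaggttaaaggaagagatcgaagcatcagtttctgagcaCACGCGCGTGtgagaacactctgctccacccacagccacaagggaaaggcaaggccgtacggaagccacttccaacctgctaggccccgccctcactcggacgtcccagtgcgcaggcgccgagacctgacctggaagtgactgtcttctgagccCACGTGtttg

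The tables held 8827, 2330 and 9802 barcodes and 1150463, 248617 and 1324350 counts in tumours 1, 2 and 3, with medians of 84, 85 and 105 counts per barcode. Comparisons within tumours used the 1060, 148 and 1059 barcodes of at least 200 counts, which held 466239, 46315 and 398419 counts, so tumour 2 is the least precise throughout. Markers of the granule neuron lineage were present in every total, with 167, 47 and 220 counts of the progenitor factor Atoh1 and 1976, 581 and 3069 of Neurod1. Libraries shared 3 to 8 barcodes by pair.

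In tumour totals the 38 genes other than Mycn together took 126.9, 97.34 and 136.5 of every 10000 counts in tumours 1, 2 and 3. Tumour 2 was the lowest. Levels of single genes are given per 1000000 counts of the tumour or set (CPM). Of the 32 members with at least 100 counts, 22 were lowest in tumour 2, while 21 were highest in tumour 3, 7 in tumour 1 and 4 in tumour 2. In a summed total, fewer cells that express a gene and less of its mRNA per cell cannot be told apart. Mycn itself did not follow the order of the sum. It had 332.9, 374.1 and 345.8 CPM in tumours 1, 2 and 3 (383, 93 and 458 counts), a mean of 350.9 ± 21.05 (SD, n = 3), and was nominally highest in tumour 2.

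Among the nucleolar genes, Ncl, which encodes the ribosomal RNA-binding protein nucleolin, had the most counts, with 1643, 872.8 and 1759 CPM in tumours 1, 2 and 3. Npm1, the histone and ribosome chaperone nucleophosmin, had 887.5, 518.9 and 929.5 CPM. Nolc1, which escorts small nucleolar ribonucleoproteins, had 373.8, 201.1 and 422.8 CPM. In each of these 3 genes tumour 2 was low and tumours 1 and 3 lay close together. Dkc1, the pseudouridine synthase of the H/ACA particles, was the most even of the 39, with 311.2, 313.7 and 308.1 CPM and a mean of 311.0 ± 2.834 (SD, n = 3). Nop56, a core protein of the C/D particles that methylate ribosomal RNA, was also even, at 425.9, 470.6 and 440.2 CPM. Across the 32 genes with at least 100 counts the median coefficient of variation between tumours was 20.65%, and 15 of them lay above the median of 22.26% for all 5336 genes with as many counts, so the spread of the members was near that of other genes.

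Fbl, the methyltransferase of the C/D particles, stood apart from its partners Nop56 and Nop58. It had 77.36 CPM in tumour 1 (89 counts, 95% Poisson interval 62.13 to 95.2), 8.045 in tumour 2 (2 counts, 0.9742 to 29.06) and 12.08 in tumour 3 (16 counts, 6.906 to 19.62). The interval of tumour 1 lay above those of both other tumours. Its coefficient of variation was 119.7%, a value reached or passed by 5 of the 5336 genes (0.0937%), Fbl included. The 89 counts came from 87 barcodes with at most 2 in any barcode. Intervals here and below cover counting error only. Nop58 had 382.5, 458.5 and 493.1 CPM in the same tumours, with no excess in tumour 1.

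The member with the most counts among the nuclear transport and chromatin-associated genes was Ybx1, a cold-shock protein that binds mRNA, with 1409, 1231 and 1797 CPM in tumours 1, 2 and 3. Among the supply genes it was Nme1, a nucleoside diphosphate kinase, with 378.1, 333.8 and 380.6 CPM. The leading initiation gene Eif4a1, the helicase that unwinds mRNA leaders, had 855.3, 418.3 and 763.4 CPM. All 3 genes were lowest in tumour 2, with the widest gap to the other tumours in Eif4a1. Hspd1, the mitochondrial chaperonin, had 549.3, 446.5 and 561.0 CPM. The scarce members were Cad, Polr1b, Rrp12 and Odc1, with 42, 39, 38 and 56 counts over all tumours, and they had 19, 15, 16 and 13 counts in barcodes of at least 200 counts.

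**Figure D1:**
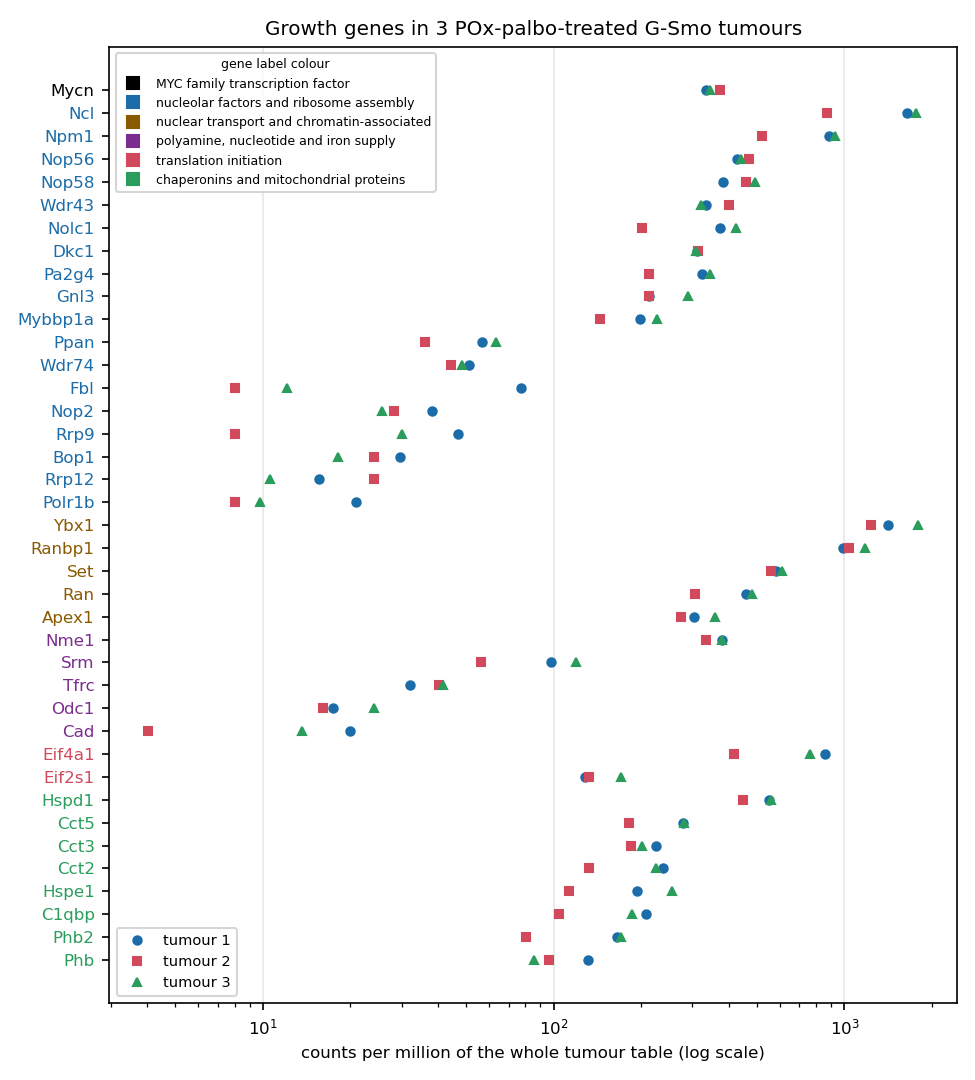
CPM of each of the 39 growth genes in the total of each tumour, on a log axis, with genes grouped by role and marked by the colour of their names. Fbl is the gene whose tumours lie farthest apart, with 77.36 CPM in tumour 1 against 8.045 in tumour 2 and 12.08 in tumour 3, while Dkc1 spans only 308.1 to 313.7.

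To ask whether the growth genes went with differentiation, counts were summed over barcodes with a Neurod1 count (330, 51 and 407 in tumours 1, 2 and 3) and over barcodes without one (730, 97 and 652), and compared by edgeR's quasi-likelihood test with the tumour as a block. At this depth a barcode without a count need not lack the mRNA. A gene was tested where the sums held at least 20 counts, which 35 of the 39 members did and Odc1, Cad, Polr1b and Rrp12 did not. Growth genes took fewer counts in Neurod1-detected barcodes of every tumour: the 38 genes summed to 88.83, 83.45 and 106.7 per 10000 there, against 114.1, 98.8 and 125.8 per 10000 in Neurod1-undetected barcodes of tumours 1, 2 and 3. The Poisson intervals of the 2 sets were apart in tumours 1 and 3 and overlapped in tumour 2 (71.06 to 97.39 in detected and 87.31 to 111.4 in undetected barcodes). The means were 92.99 ± 12.17 in detected and 112.9 ± 13.54 in undetected barcodes (SD, n = 3 each).

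Of the 35 members tested, 1 was lower in Neurod1-detected barcodes and 0 were higher at a Benjamini-Hochberg adjusted p under 0.05, while 0.848% of all 7310 genes tested were called in either direction, 0.205% as lower and 0.643% as higher. That member was Nolc1. It had 302.5, 51.83 and 370.8 CPM in Neurod1-detected barcodes of tumours 1, 2 and 3 (46, 1 and 60 counts), against 518.9, 407.1 and 591.7 CPM in undetected barcodes (163, 11 and 140 counts). The detected sets lay below the undetected sets in 3 of 3 tumours, with no overlap between the groups. The log2 change of Nolc1 was -0.80 (SE 0.22, edgeR adjusted p = 0.03587). The call rested on both large tumours, since edgeR's adjusted p was 0.9999 when tumour 1 was left out, 0.9993 when tumour 3 was and 0.004908 when tumour 2 was, and DESeq2 on the same sums gave 0.9996. Without the block it was 0.9991, and with barcodes of at most 10% mitochondrial counts 0.1294. The log2 change lay between -1.11 and -0.61 in every alternative run.

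Another 7 members had an unadjusted p under 0.05, all of them with a negative log2 change, so that 8 of 35 members (22.86%) did so against 7.688% of all genes tested. These 7 are named here after their values were seen. The list itself was chosen with earlier results of these data known, and the genes compared were not matched to it by counts. The larger share is therefore no independent support. Dkc1 had 309.0, 259.2 and 253.4 CPM in Neurod1-detected barcodes, against 423.4, 703.1 and 473.4 CPM in undetected barcodes. The groups did not overlap, but its log2 change of -0.75 (SE 0.23) missed the threshold at an edgeR adjusted p of 0.08438. Ncl had 1059, 984.9 and 1632 CPM in detected barcodes, against 1719, 1332 and 1838 CPM in undetected ones, a log2 change of -0.44 (SE 0.16, edgeR adjusted p = 0.2434). Ncl was lower in 3 of 3 tumours, though the ranges of the groups overlapped. Gnl3, the nucleolar GTPase nucleostemin, had 157.8, 155.5 and 253.4 CPM in detected barcodes, against 261.0, 259.0 and 371.9 CPM in undetected ones (log2 change -0.64, SE 0.27, edgeR adjusted p = 0.4409). It was lower in each tumour's own pair of sets, and the highest detected value lay just under the lowest undetected one. Nop56 had 434.0, 362.8 and 395.5 CPM in detected barcodes, against 525.2, 518.1 and 587.5 CPM in undetected ones (log2 change -0.43, SE 0.21, edgeR adjusted p = 0.5826), again with no overlap.

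Outside the nucleolar genes the 3 others were Ran, Hspd1 and Eif4a1. Ran, the GTPase that drives transport through nuclear pores, had 171.0, 155.5 and 327.5 CPM in Neurod1-detected barcodes, against 327.9, 296.0 and 439.5 CPM in undetected ones (log2 change -0.66, SE 0.25, edgeR adjusted p = 0.2892). It was lower in 3 of 3 tumours, with detected tumour 3 as high as undetected tumour 1. Hspd1 had 526.0, 622.0 and 475.9 CPM in detected barcodes, against 767.1, 444.1 and 824.2 CPM in undetected ones (log2 change -0.57, SE 0.19, edgeR adjusted p = 0.1808). Here tumour 2, with 12 counts in each set, went the other way. Without tumour 2, Hspd1 (-0.66, edgeR adjusted p = 0.001326), Ncl (-0.42, 0.0043) and Dkc1 (-0.66, 0.03522) passed beside Nolc1. More genes were also called over all in that run than with every tumour, so the added calls do not set the members apart. Eif4a1 had 572.0, 414.7 and 642.7 CPM in detected barcodes, against 849.9, 666.1 and 714.3 CPM in undetected ones (log2 change -0.40, SE 0.19, edgeR adjusted p = 0.5817), with no overlap.

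For the leading genes of the transport and supply groups the log2 change lay near 0. Ybx1 had 644.4, 570.2 and 1149 CPM in Neurod1-detected barcodes, against 693.9, 740.1 and 1002 CPM in undetected ones, a log2 change of 0.01 (95% interval -0.34 to 0.36). Nme1 had 263.0, 207.3 and 234.8 CPM in detected barcodes, against 235.6, 74.01 and 283.2 CPM in undetected ones (log2 change 0.02, SE 0.27). Both genes overlapped between groups and moved in different directions in different tumours. Cct5, a subunit of the cytosolic chaperonin, was positive at 0.25 (SE 0.26). Over the 34 tested genes without Mycn the median log2 change was -0.25, with 25 below 0 and 9 above, beside a median of -0.01 over all genes tested. In CPM, 12 of the 34 were lower in all 3 tumours and 0 were higher in all 3, and 5 had no overlap between the groups. The same counts were not made over all genes tested, so they do not set the list apart. By role the median was -0.28 in 16 nucleolar genes, -0.10 in 5 transport and chromatin genes, -0.40 in 3 supply genes, -0.30 in 2 initiation genes and -0.25 in 8 chaperonin and mitochondrial genes.

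For Mycn no difference was called in either direction. It had 341.9, 414.7 and 414.1 CPM in Neurod1-detected barcodes of tumours 1, 2 and 3, against 369.2, 370.1 and 346.6 CPM in undetected ones. It was nominally lower in tumour 1 and higher in tumours 2 and 3, with a log2 change of 0.07 (SE 0.22, 95% interval -0.37 to 0.51, edgeR adjusted p = 0.9829). That interval holds the median of -0.25 of the other 34 genes, and Mycn was not tested against them. Its relative Myc, which can drive the same genes, had 15 counts in detected and 59 in undetected barcodes (log2 change -1.15, SE 0.51, edgeR adjusted p = 0.4919).

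Other values moved with Neurod1 detection. Runs that limited, matched or modelled some of them are given here and below, but how much of the differences each accounts for was not tested. Mki67 and Top2a together had 16.37, 18.66 and 20.89 counts per 10000 in detected barcodes, against 26.64, 30.34 and 28.66 in undetected ones. The mitochondrial share of counts was 4.94, 7.75 and 5.37% in detected barcodes, against 5.98, 13.45 and 6.93% in undetected ones. Median depth was 372.5, 253 and 316 counts in detected barcodes and 345, 256 and 294 in undetected ones. All 11 myeloid markers had counts in both sets, summing to 4.997, 40.95 and 5.315 per 10000 in detected barcodes and 8.022, 11.1 and 16.02 in undetected ones. All 9 markers of the oligodendrocyte lineage had counts in both sets as well, summing to 7.298, 27.99 and 3.275 per 10000 in detected barcodes and 5.953, 2.59 and 5.072 in undetected ones. Of 9 vascular and mural markers, 7 had counts in detected barcodes, with Pecam1 and Vtn at 0, and 9 in undetected ones, with sums of 0.0, 13.48 and 2.41 against 2.706, 2.96 and 1.944 per 10000. Each of these 3 sums was higher in the detected set of tumour 2, while none of these 3 lists was higher in both tumours 1 and 3. The 5 interneuron markers summed higher in detected barcodes of every tumour, at 5.655, 5.183 and 6.736 per 10000, against 3.374, 2.96 and 5.621. Of these 5, only 2 had counts in detected barcodes, with Gad2, Pax2 and Slc32a1 at 0. In undetected barcodes 3 had counts, Gad2 and Slc32a1 among them, with Pax2 and Lhx5 at 0. The astrocyte, erythroid and neutrophil sums were not higher in all 3 tumours. Barcodes with at least 2 counts from any 1 list of another cell type numbered 40 of 330, 11 of 51 and 44 of 407 among detected barcodes, against 90 of 730, 6 of 97 and 80 of 652 among undetected ones. With those barcodes left out, Nolc1 had a log2 change of -0.76 (edgeR adjusted p = 0.1303). The 7 granule neuron markers other than Neurod1 summed to 32.15, 23.84 and 28.92 per 10000 in detected barcodes, against 12.86, 23.31 and 14.96 in undetected ones, with Gabra6, a gene of mature granule neurons, at 0 in both. Tumour 2 thus hardly differed in the other neuronal markers.

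**Figure D2:**
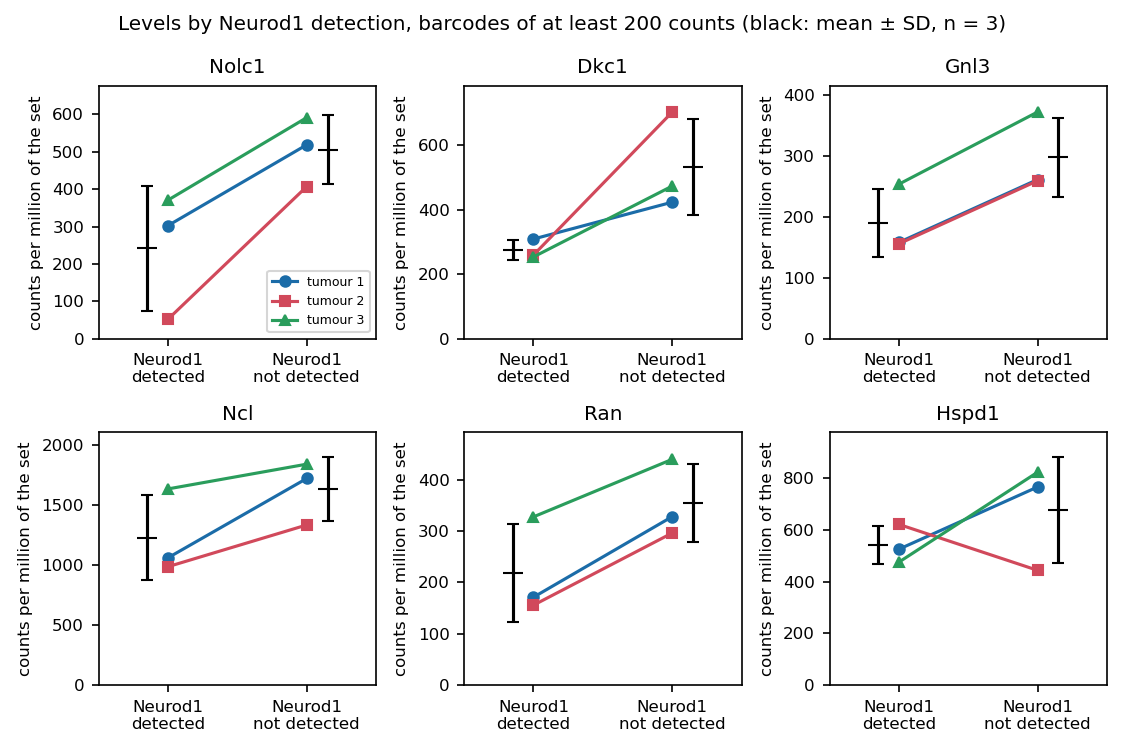
CPM of 6 growth genes in Neurod1-detected (left) and undetected (right) barcodes of at least 200 counts, with a line for each tumour and the mean ± SD in black (n = 3). Nolc1, Dkc1 and Gnl3 do not overlap between the groups, and Hspd1 is reversed in tumour 2, with 622.0 CPM in detected and 444.1 in undetected barcodes.

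To ask whether the growth genes went with proliferation, barcodes with a count of Mki67 or Top2a (343, 58 and 377) were compared with barcodes with neither (717, 90 and 682). The 38 genes summed to 114.6, 90.22 and 121.8 per 10000 in proliferation-marker-detected barcodes of tumours 1, 2 and 3, against 100.4, 94.52 and 115.2 per 10000 in barcodes with neither. The sum was higher in tumours 1 and 3 and lower in tumour 2, with means of 108.9 ± 16.55 in detected and 103.4 ± 10.66 in undetected barcodes (SD, n = 3 each). Of the 35 members tested, 0 passed in edgeR, where 2.27% of all 7309 genes tested were called, 1.63% as higher and 0.643% as lower. In simulated counts for this comparison, 14.3% of genes given an absolute log2 change of 1 were called. Those genes were picked at random from all count levels and given the same spread, so the rate is not that of the better-counted members. The members' log2 changes lay between -0.56 and 0.57, so a lack of calls does not show equal levels. An unadjusted p under 0.05 in edgeR was found for 1 of 35 members (2.857%), against 9.153% of all genes tested, and 0 members passed or had such a p in DESeq2. That member was Dkc1, with 476.6, 484.1 and 467.0 CPM in detected barcodes, against 328.9, 551.0 and 321.5 CPM in barcodes with neither (log2 change 0.49, SE 0.22, edgeR adjusted p = 0.3864). Dkc1 was higher in tumours 1 and 3 and lower in tumour 2.

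Mycn had 376.8, 572.1 and 391.1 CPM in Mki67- or Top2a-detected barcodes, against 349.9, 211.9 and 361.1 CPM in barcodes with neither. It was higher in 3 of 3 tumours with no overlap, but by a log2 change of 0.24 (SE 0.22, edgeR adjusted p = 0.8964) that rested in tumour 2 on 13 and 5 counts. Ncl had 1685, 1232 and 1879 CPM in detected barcodes, against 1389, 1144 and 1660 CPM in barcodes with neither, higher in 3 of 3 tumours but within overlapping ranges (log2 change 0.24, SE 0.14, edgeR adjusted p = 0.7133). Nop56 had 559.7, 616.1 and 548.7 CPM in detected barcodes, against 454.9, 296.7 and 480.0 CPM in barcodes with neither (log2 change 0.34, SE 0.20, edgeR adjusted p = 0.6931), with no overlap. Nolc1 had 504.3, 220.1 and 507.8 CPM in detected barcodes, against 412.9, 296.7 and 497.6 CPM in barcodes with neither (log2 change 0.16, SE 0.21), and its groups overlapped.

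None of the leading genes of the other roles passed. Ybx1 had 620.7, 836.2 and 1127 CPM in Mki67- or Top2a-detected barcodes, against 713.8, 508.6 and 1013 CPM in barcodes with neither (log2 change 0.08, SE 0.17). Eif4a1 had 731.5, 440.1 and 788.0 CPM in detected barcodes, against 776.8, 678.2 and 607.7 CPM in barcodes with neither (log2 change 0.10, SE 0.18). Hspd1 had 737.1, 572.1 and 682.9 CPM in detected barcodes, against 657.8, 466.2 and 682.5 CPM in barcodes with neither (log2 change 0.13, SE 0.18). The groups overlapped in all 3 genes. Nme1 had 249.4, 88.02 and 210.1 CPM in detected barcodes, against 241.4, 169.5 and 303.8 CPM in barcodes with neither (log2 change -0.23, SE 0.27). C1qbp, a mitochondrial matrix protein, had 194.0, 176.0 and 227.6 CPM in detected barcodes, against 133.0, 42.39 and 171.7 CPM in barcodes with neither, without overlap (log2 change 0.56, SE 0.32, edgeR adjusted p = 0.6475). Over the 34 genes without Mycn the median log2 change was 0.11, with 25 above 0 and 9 below, beside -0.01 over all genes tested. In CPM, 6 were higher and 1 was lower in all 3 tumours, counts that were not made over all genes tested. Myeloid markers summed to 6.318, 36.09 and 9.689 per 10000 in detected barcodes, against 7.488, 11.44 and 13.17 in barcodes with neither. Oligodendrocyte-lineage markers summed to 3.27, 2.201 and 3.736 in detected barcodes, against 8.363, 23.74 and 4.8 in barcodes with neither, and vascular and mural markers to 0.7204, 11.88 and 2.101, against 2.519, 2.967 and 2.158. Depth also moved with this comparison, with medians of 447, 274.5 and 359 counts per barcode in detected barcodes and 318, 246.5 and 284 in barcodes with neither. How much of the differences these values account for was not tested.

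**Figure D3:**
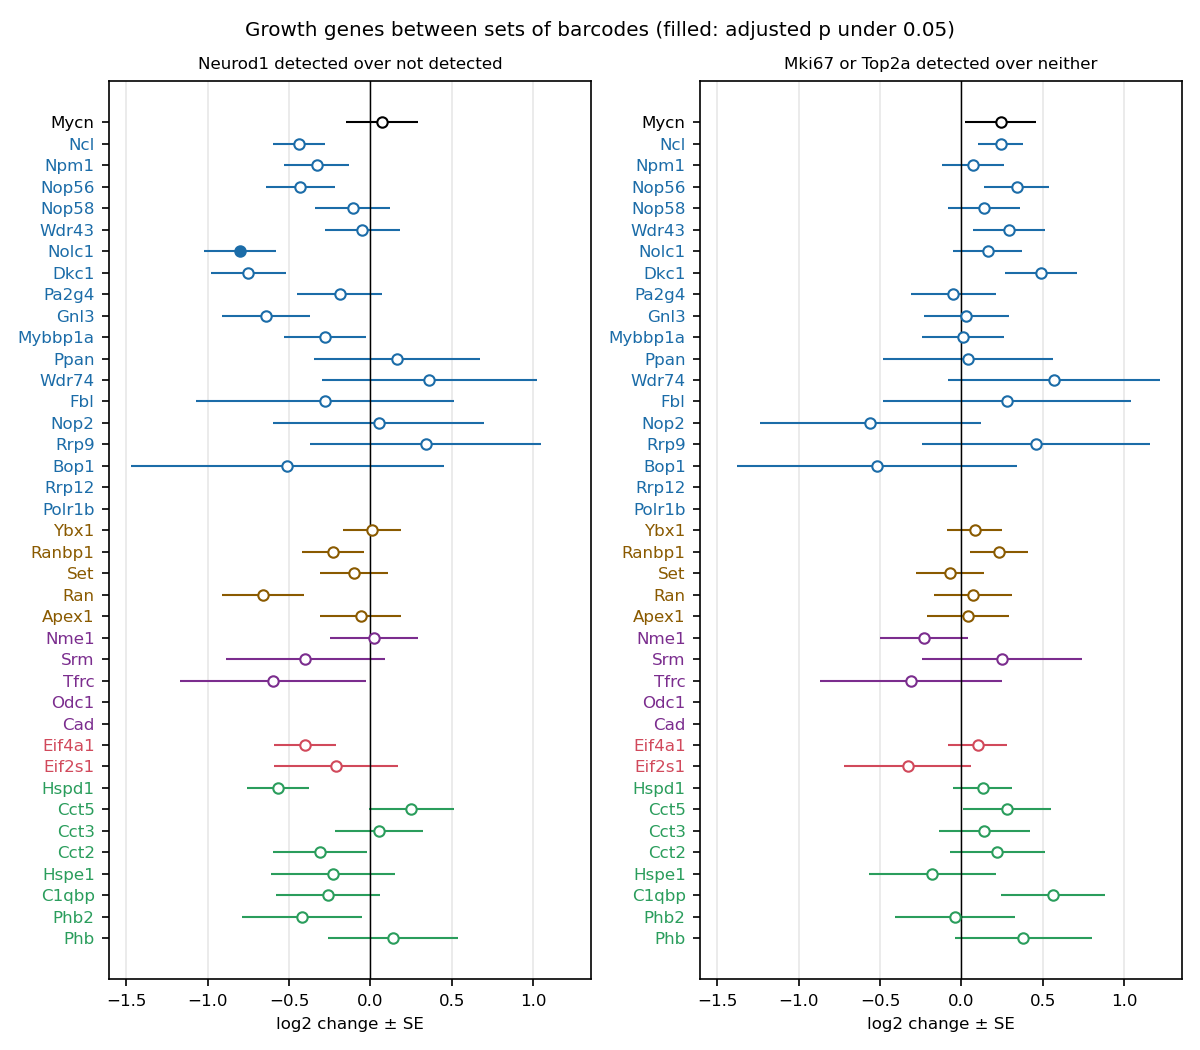
Log2 changes ± SE of the tested growth genes for Neurod1-detected over undetected barcodes (left) and Mki67- or Top2a-detected over barcodes with neither (right), from edgeR, with name colours by role as in the plot of tumour levels. Filled points passed an adjusted p under 0.05, which Nolc1 at -0.80 did on the left and no member did on the right; Odc1, Cad, Polr1b and Rrp12 had too few counts to test.

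Since proliferation markers were themselves lower in Neurod1-detected barcodes, both kinds of detection were put in 1 model over 4 classes of barcodes. At equal status for Mki67 and Top2a, Nolc1 had a log2 change of -0.81 with Neurod1 detection (SE 0.22, edgeR adjusted p = 0.03909) and was the only 1 of 35 members called, with 0.616% of all 7308 genes called, 0.192% as lower and 0.424% as higher. That call was lost with no tumour block (edgeR adjusted p = 0.9646), with barcodes thinned to 200 counts (0.1174), with at most 10% mitochondrial counts (0.118), without tumour 1 (0.9983) and without tumour 3 (0.8131). Without tumour 2, Nolc1 (-0.73, edgeR adjusted p = 0.01492) and Hspd1 (-0.66, 0.009766) passed, again with more genes called over all. Dkc1 (-0.75, SE 0.23, edgeR adjusted p = 0.1006), Ncl (-0.45, SE 0.15, 0.1986) and Hspd1 (-0.57, SE 0.19, 0.1875) kept nearly the same size without passing. At equal Neurod1 status, 0 of 35 members were called for Mki67 or Top2a detection in edgeR, the only tool run for this model, where 2.52% of all genes were called, 1.68% as higher and 0.835% as lower. An unadjusted p under 0.05 was found there for 0 of 35 members and for 10.11% of all genes. Dkc1 had a log2 change of 0.38 (SE 0.22, edgeR adjusted p = 0.6101) in that term. The interaction of the 2 terms called 0 members and 0.0137% of genes in edgeR. Cct3, a chaperonin subunit (-1.61, SE 0.59), and Fbl (3.51, SE 1.51) had an unadjusted p under 0.05 there, 5.714% of members against 3.53% of all genes, each with an edgeR adjusted p of 0.9997. Fbl had only 30, 0 and 2 counts in these barcodes of tumours 1, 2 and 3, so its value rested almost wholly on tumour 1.

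The sum of the 38 genes was lowest in the class with Neurod1 alone in every tumour, at 82.33, 80.74 and 102.7 per 10000 in tumours 1, 2 and 3. It was 103.3, 85.78 and 113.1 where Neurod1 and a proliferation marker were both detected, 118.6, 93.95 and 126.7 with Mki67 or Top2a alone, and 110.8, 102.9 and 125.0 with neither. Means were 88.59 ± 12.25 for Neurod1 alone, 100.7 ± 13.84 for both, 113.1 ± 17.06 for Mki67 or Top2a alone and 112.9 ± 11.2 for neither (SD, n = 3 each). In tumour 2 the order depended on the barcodes used. With barcodes of at least 300 counts, the Neurod1-alone class of tumour 2 (6 barcodes, 91.78 per 10000) lay above the class with both (83.05) and that with Mki67 or Top2a alone (68.64), and with at most 10% mitochondrial counts it lay above the class with both (90.87 against 87.09). In tumours 1 and 3 it was lowest under both settings. The class with Mki67 or Top2a alone was higher than that with neither in tumours 1 and 3 and lower in tumour 2. Within tumours 1 and 3 the Poisson intervals of the Neurod1-alone class lay below those of both Neurod1-undetected classes, and in tumour 2 all 4 intervals overlapped. Most of the gap lay in the nucleolar genes, which summed to 40.17 ± 5.393 per 10000 with Neurod1 alone, 49.39 ± 6.045 with both, 55.39 ± 10.88 with Mki67 or Top2a alone and 56.86 ± 4.242 with neither. Transport and chromatin genes summed to 22.39 ± 4.804 with Neurod1 alone and 26.48 ± 3.234 with neither, and were lower with Neurod1 alone in 3 of 3 tumours (20.22, 19.06 and 27.9, against 22.77, 27.94 and 28.72 per 10000 with neither), with overlapping Poisson intervals in each. Mycn took another order in the means, with 4.774 ± 0.9555 per 10000 in barcodes with both and 4.35 ± 1.167 with Mki67 or Top2a alone. The means were 3.135 ± 1.055 with Neurod1 alone and 2.994 ± 0.9143 with neither. Only tumour 2 kept this order, at 5.783, 5.669, 2.243 and 2.044 on 6, 7, 2 and 3 counts. In the same class order tumour 1 had 4.655, 3.454, 2.862 and 3.868, and tumour 3 had 3.883, 3.927, 4.3 and 3.069. The Poisson intervals overlapped in each tumour. These sums were not tested.

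**Figure D4:**
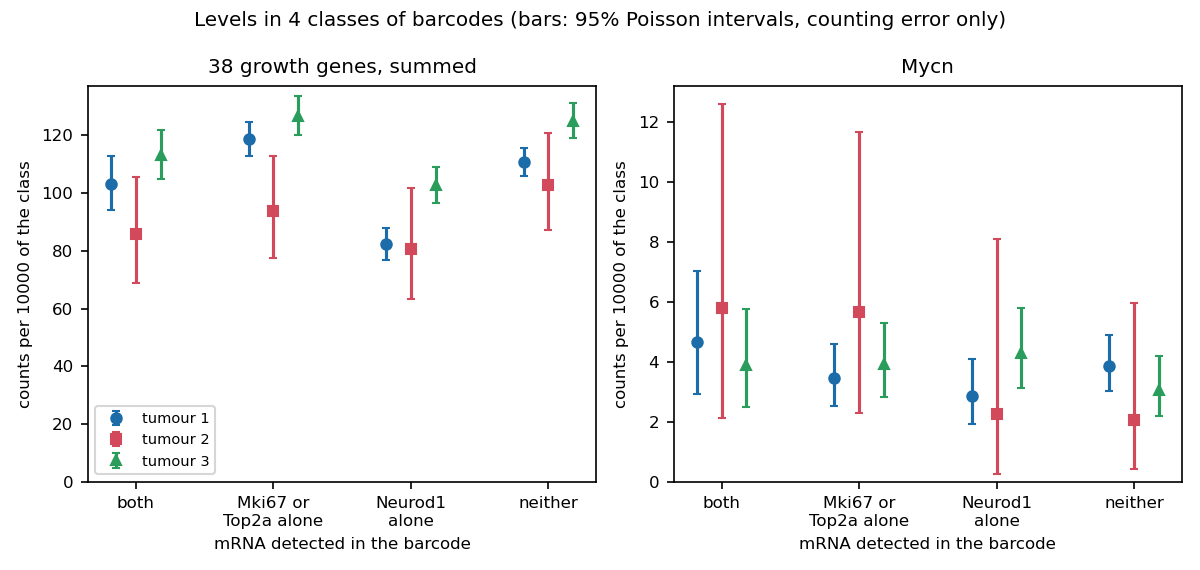
Counts per 10000 of the 38 growth genes together (left) and of Mycn (right) in 4 classes of barcodes of at least 200 counts, by tumour, with exact 95% Poisson intervals that cover counting error only. The growth genes are lowest in the Neurod1-alone class of each tumour (82.33, 80.74 and 102.7), an order that tumour 2 did not keep with barcodes of at least 300 counts or at most 10% mitochondrial counts, while the intervals of Mycn overlap between classes.

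Whether barcodes with a Mycn count held more of the growth genes was asked last among the planned comparisons. Mycn was detected in 251 of 2267 barcodes of at least 200 counts (11.07%, 95% Clopper-Pearson interval 9.809 to 12.44). By tumour the share was 11.7, 7.432 and 10.95% in tumours 1, 2 and 3. The intervals in this paragraph pool barcodes of all tumours and do not cover the spread between tumours. In barcodes with at least 3 counts of myeloid markers, cells that should lack Mycn, 1 of 40 had a count (2.5%, 0.06327 to 13.16), at median depths of 510.5, 465 and 407 counts against 353.5, 255.5 and 301 in all barcodes of tumours 1, 2 and 3. Shares by class, pooled over tumours, were 15.98% where Neurod1 and a proliferation marker were both detected and 11.99% with Mki67 or Top2a alone. They were 10.54% with Neurod1 alone and 9.674% with neither. The classes differ in depth, so every barcode was also thinned to 200 counts. Classes were then assigned anew from the thinned counts and held 102, 492, 480 and 1193 barcodes in the same order, so they are not the same barcodes. The shares were 5.882, 7.52, 6.25 and 6.035%, with overlapping intervals. In the thinned counts 0 of 34 myeloid-marker barcodes had a Mycn count, which allows up to 10.28%. No barcode of the 2267 was too shallow for the thinning.

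The growth genes were not called as different in Mycn-detected barcodes. The 38 genes summed to 109.9, 59.31 and 119.7 per 10000 in the 124, 11 and 116 Mycn-detected barcodes of tumours 1, 2 and 3, against 105.2, 95.01 and 117.8 per 10000 in the 936, 137 and 943 undetected barcodes. Tumours 1 and 3 were nominally higher and tumour 2, with 11 barcodes, lower. Of 34 members tested, 0 passed and 0 had an unadjusted p under 0.05 in edgeR or in DESeq2, and 0% of all 7310 genes passed in edgeR, where 209 had an unadjusted p under 0.05. Ncl had 1712, 296.6 and 1652 CPM in Mycn-detected barcodes, against 1467, 1257 and 1771 CPM in undetected ones (log2 change -0.36, SE 0.49). Nolc1 had 546.6, 0.0 and 422.2 CPM in detected barcodes, against 431.0, 279.4 and 514.6 CPM in undetected ones (log2 change -0.14, SE 0.44). Both overlapped between the groups, and with these SEs changes of the size seen for Nolc1 by Neurod1 detection were not detectable at this depth. The median over the 34 genes was -0.09, beside -0.15 over all genes tested.

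The list was set beside other growth genes of the same pathways. Of 83 other ribosome assembly factors tested, 0 passed by Neurod1 detection in edgeR, 54 lay below 0 and the median was -0.12. An unadjusted p under 0.05 was found for 3 of the 83 (3.614%), a smaller share than the 7.688% of all genes tested, so the count of such genes did not set this list apart. Of 22 other polyamine and nucleotide genes, 0 passed with a median of -0.50 and 17 below 0, of 37 other translation factors 0 passed with a median of -0.07, and of 5 other chaperonin subunits 0 passed with a median of -0.10. By Mki67 or Top2a detection 1 of the 22 polyamine and nucleotide genes passed and 0 of the 83, 37 and 5 genes of the other lists did. That gene was Rrm2, the S-phase subunit of ribonucleotide reductase, with 288.2, 88.02 and 268.5 CPM in detected barcodes, against 108.5, 127.2 and 101.3 CPM in barcodes with neither. Rrm2 rose by 1.34 on the log2 scale (SE 0.32, edgeR adjusted p = 0.002507), in 2 of 3 tumours. Of 10 other MYC network factors, 0 passed in either comparison, and Mxd3, a Max partner made in dividing cells, had 19 counts in detected barcodes and 5 in barcodes with neither (log2 change 2.43, SE 0.82, edgeR adjusted p = 0.09569).

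The summed level of the growth genes went down with barcode depth in tumours 1 and 3. Barcodes of under 100 counts gave 148.1, 103.1 and 147.6 per 10000 in tumours 1, 2 and 3, those of 100 to 199 counts 128.8, 92.04 and 142.5, those of 200 to 499 counts 109.7, 99.49 and 119.7, and those of 500 or more 102.2, 63.56 and 114.9. Mycn showed no such order, at 3.022, 3.475 and 3.517 per 10000 in the shallowest barcodes and 3.304, 1.096 and 3.839 in the deepest. Only 9 barcodes of tumour 2 reached 500 counts. Most barcodes fell under 200 counts, and most member counts came from them, so barcodes of at least 200 counts were compared with the rest in a comparison chosen after the data were seen.

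All 39 members could be tested there, and 6 were lower and 1 was higher in barcodes of at least 200 counts, while 8.05% of all 10623 genes tested were called, 5.54% as lower and 2.51% as higher. Ybx1 had 677.8, 669.3 and 1062 CPM in barcodes of at least 200 counts, against 1907, 1359 and 2114 CPM in shallower ones, and had a log2 change of -1.26 (SE 0.25, edgeR adjusted p = 6.854e-05). The groups did not overlap. Ranbp1, which helps Ran release its cargo, had 585.5, 842.1 and 645.0 CPM in barcodes of at least 200 counts, against 1267, 1078 and 1402 CPM in shallower ones, and its log2 change was -1.0 (SE 0.24, edgeR adjusted p = 0.002011), again with no overlap. Ran had 276.7, 237.5 and 394.1 CPM in barcodes of at least 200 counts, against 584.6, 321.3 and 518.4 CPM in shallower ones, a log2 change of -0.73 (SE 0.24, edgeR adjusted p = 0.03913), with overlapping ranges. Set, a histone chaperone, was nearest to passing among the rest of that role at -0.64 (SE 0.24, edgeR adjusted p = 0.07095).

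Nme1 had 244.5, 129.5 and 263.5 CPM in barcodes of at least 200 counts, against 469.1, 380.6 and 430.9 CPM in shallower ones, a log2 change of -0.96 (SE 0.25, edgeR adjusted p = 0.003892) with no overlap. Npm1 had 553.4, 367.1 and 665.1 CPM in barcodes of at least 200 counts, against 1115, 553.6 and 1043 CPM in shallower ones, a log2 change of -0.84 (SE 0.24, edgeR adjusted p = 0.01372). Hspe1, the cofactor of Hspd1, had 107.2, 64.77 and 143.1 CPM in barcodes of at least 200 counts, against 251.4, 123.6 and 303.5 CPM in shallower ones, a log2 change of -1.16 (SE 0.27, edgeR adjusted p = 0.001046). Npm1 and Hspe1 were lower in 3 of 3 tumours, with overlapping ranges, and named pseudogenes exist for Hspe1 (6), Hspd1 (5), Ybx1 (1) and Cct3 (1), which makes the counts of these genes uncertain. Mybbp1a, a nucleolar protein that binds transcription factors, had 291.7, 194.3 and 333.8 CPM in barcodes of at least 200 counts, against 134.5, 133.5 and 179.3 CPM in shallower ones. It rose by 0.89 (SE 0.25, edgeR adjusted p = 0.009633) with no overlap. Dkc1 (0.55, SE 0.24, edgeR adjusted p = 0.1312) and Hspd1 (0.40, SE 0.24, 0.3269) were positive without passing, and Ncl (-0.00, SE 0.24) and Mycn (0.10, SE 0.24) lay near 0.

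The 18 nucleolar genes had a median log2 change of 0.13 with depth, against -0.73 in 5 transport and chromatin genes, -0.72 in 5 supply genes and -0.21 in 8 chaperonin and mitochondrial genes, beside 0.0 over all genes tested. The counts in other growth lists are to be read beside the 5.54% of all genes called as lower and the 2.51% called as higher. Of 38 other translation factors, 11 were lower, led by Eif3i (-1.29, SE 0.28, edgeR adjusted p = 0.0005207), and 1, Eif4g1, was higher (1.03, SE 0.24, 0.001207). Of 24 other polyamine and nucleotide genes, 4 were lower, among them Nme2 (-1.82, SE 0.33, edgeR adjusted p = 2.096e-05), while of 90 other ribosome assembly factors 4 were lower, a share below that of all genes. Without tumour 1 only Ybx1 of the members passed in edgeR, and without tumour 3 or without the tumour block 0 did, though 5 and 8 had an unadjusted p under 0.05. Ran and Mybbp1a did not pass in DESeq2 (adjusted p = 0.09817 and 0.09198). The call of Ran was also lost with barcodes of at most 10% mitochondrial counts (edgeR adjusted p = 0.06554) and between barcodes of at least 300 and under 100 counts (0.09293), and the other 6 members passed in both. In the second of these, Set (-1.07, edgeR adjusted p = 0.03075) and Tfrc, the transferrin receptor (1.88, 0.02366), passed as well. The mitochondrial share was 5.64, 11.08 and 6.30% in barcodes of at least 200 counts, against 2.83, 11.51 and 5.32% in shallower ones. How much of these differences that share accounts for was not tested.

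**Figure D5:**
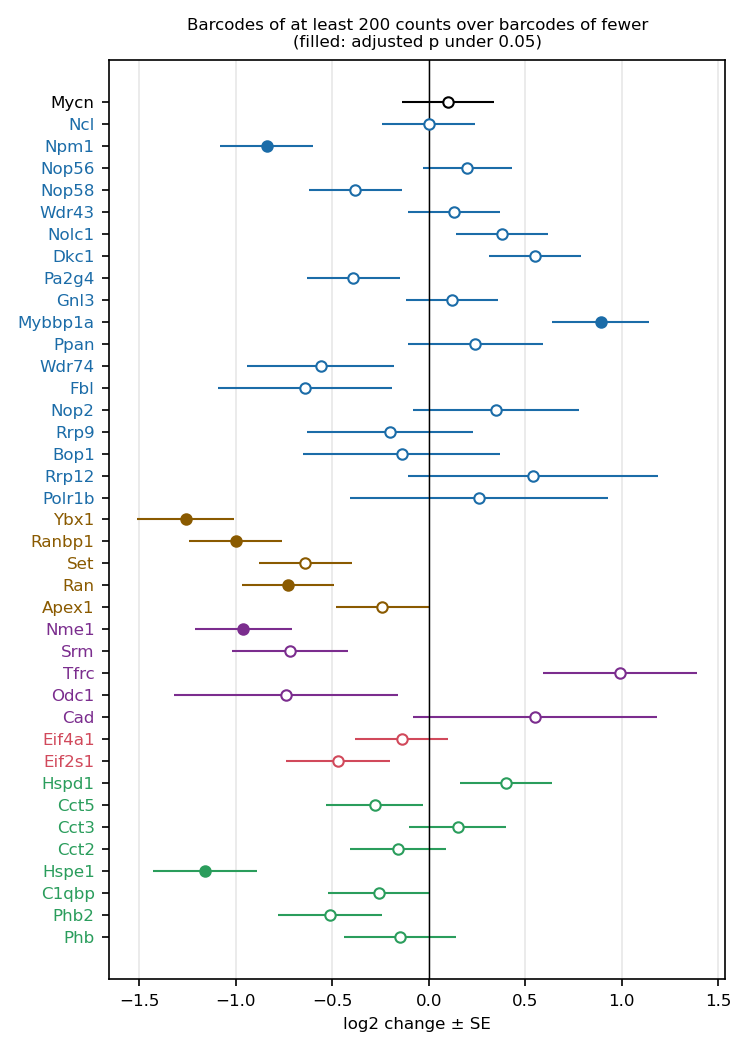
Log2 changes ± SE of the 39 growth genes between barcodes of at least 200 counts and barcodes of fewer, from edgeR with the tumour as a block, with name colours by role as in the plot of tumour levels. Filled points passed an adjusted p under 0.05: Ybx1, Hspe1, Ranbp1, Nme1, Npm1 and Ran lie below 0 and Mybbp1a above it.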

How the data were processed

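Per the labels' protocols, tumour tissue of 3 mice was dissociated with papain and run through Drop-seq. The values deposited by the authors are raw counts per gene and barcode, whole numbers with no normalisation. STAR, Cell Ranger and the human build GRCh38 are named in the submitters' processing notes without role or version, yet 18566 of 19744 symbols (94.03%) matched mouse genes, so positions were taken from RefSeq's promoter table alone. Every barcode holds at least 50 genes. Doublets were not called and no cell type annotation was used. The members and gene lists were chosen with earlier results of these data known.

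Counts were summed per tumour and set of barcodes, and tested with edgeR 4.0.16 in R 4.3.3 (TMM, quasi-likelihood, tumour as a block, at least 20 counts in the fit, Benjamini-Hochberg threshold 0.05), with DESeq2 1.42.0 as an alternative. The block is the tumour, from which both sets of barcodes come. The code was tested on simulated data. Genes that chose the sets (Neurod1, Mki67, Top2a, Mycn) stayed in library sizes and were not tested there. The labels do not say more of the 3 animals. The tests share their estimate of spread over genes, so a p-value need not measure how a single gene's difference varied over the 3 tumours. The p-values speak for these tumours alone, and the block takes out each tumour's own level. Thinning drew 200 counts per barcode. Values are given in every tumour for Mycn, for members called in a planned comparison and for the member with the most counts in each role. Python 3.11.15 with numpy 2.4.6, scipy 1.17.1, pandas 2.3.3 and matplotlib 3.10.9 was used. Alternatives covered the block, tool, scaling, filters, depth, mitochondrial share, other cell types and leaving out each tumour.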

Additional observations from a re-analysis of the deposited data

How the results depend on the processing

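The design was fitted with the tumour as a replicate block, since both sets of barcodes come from the same animal. With no replicate block, 0 members were called by Neurod1 detection, in place of 1, and 0 in the joint model; genes called over all fell to 2 by Neurod1, 64 by Mki67 or Top2a, 83 and 3 in the joint model's terms for Mki67 or Top2a and for Neurod1, and 0 in its interaction. The comparison by depth, chosen after seeing the data, then gave 0 members and 4 genes.

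The Nolc1 call by Neurod1 detection was kept with DESeq2 size factors in edgeR and with filterByExpr. It was lost, leaving 0 members called, in DESeq2, with no filter, with barcodes thinned to 200 counts, at most 10% mitochondrial counts, at least 300 counts, other cell types' markers left out and depth-matched barcodes, and in the joint model when thinned or at most 10% mitochondrial (0 each). With neither Mki67 nor Top2a, Hspd1 passed (-0.95, edgeR adjusted p = 0.02599) and Nolc1 did not (-0.93, 0.11). Over all genes, DESeq2 called 0 by Neurod1, 34 by Mki67 or Top2a and 237 by depth. Thinning gave 17, 43, and 31, 8 and 0 in the joint model's Mki67 or Top2a, Neurod1 and interaction terms. Calls by Neurod1 were 39 with no filter, 36 without other cell types and 34 with neither Mki67 nor Top2a, and calls by Mki67 or Top2a were 63 in Neurod1-undetected barcodes. By Mycn, filterByExpr gave 2, no filter 1, the mitochondrial limit 1, at least 300 counts 1 and depth matching 7. The mitochondrial limit gave 2 in the interaction. The cause was not tested. Mean Mycn with Mki67 or Top2a alone was 5.959 ± 3.542 per 10000 under the mitochondrial limit (SD, n = 3). Tumour 2 raised that mean, with 10.04 on 7 counts, against 3.684 and 4.153 in tumours 1 and 3. The 38 genes with neither took a mean of 124.2 of every 10000 non-mitochondrial counts.

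Leaving out each tumour gave 0 to 4 members by Neurod1, 0 to 2 in the joint model's Neurod1 term and 0 to 9 by depth. Genes called ranged from 9 to 191 by Mki67 or Top2a, 0 to 209 by Neurod1, 0 to 2 by Mycn and 0 to 1752 by depth. In the joint model they ranged from 33 to 230 for Mki67 or Top2a, 2 to 97 for Neurod1 and 0 to 1 for the interaction. The counts were highest without tumour 2 in each, apart from the interaction. No result changed direction while called. Depth limits all of this: tumour 2 gave 1 Nolc1 count in Neurod1-detected barcodes and 11 in undetected ones.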
